A study of Mus musculus with 6 samples.

Results

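The genes described here handle iron and heme in tumor dendritic cells (DC). They are Hmox1 and Blvrb (heme breakdown), Fth1 and Ftl1 (iron storage), Tfrc (iron uptake), Slc11a1 and Slc40a1 (iron export) and Lcn2 (siderophore binding). All 8 were found by symbol among the 23224 genes of the deposited table, and 7 of them had enough counts to be tested. DC were sorted from MC57-SIY tumors 7 days after the cells had been placed under the skin of C57BL/6 mice, and their RNA was sequenced in bulk. MC57 cells come from a mouse fibrosarcoma and here carry SIY, a peptide used as a model antigen for CD8+ T cells. The groups, of 2 libraries each, were ISG+ DC from hosts labelled Rag2-/- (replicates 2 and 3), ISG+ DC from hosts labelled WT (replicates 1 and 2) and CD103+ DC1 from hosts labelled Rag2-/- (replicates 2 and 3). All groups carried the same tumor, the same strain name and the same time of harvest. Rag2-/- mice cannot recombine antigen receptors and so lack mature T and B cells. Tumors were pooled before sorting, 2 independent experiments stand behind each kind of sample, and the sources used here give neither the age of the mice nor the gates of the sort. ISG usually stands for interferon-stimulated gene, and CD103+ DC1 are known as the conventional DC that excel at cross-presentation.

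Phagocytes that clear dying cells break heme down with heme oxygenase, which releases iron, carbon monoxide and biliverdin. The iron is then held in ferritin, a shell built of heavy (Fth1) and light (Ftl1) chains, or leaves the cell through ferroportin (Slc40a1). Cells adjust these steps in part through iron-responsive elements, short hairpins in the mRNA to which iron regulatory proteins bind when iron is scarce. Binding at an element before the coding sequence blocks translation, which counts of mRNA do not show. Binding at the elements after the coding sequence of Tfrc protects that mRNA from decay. The heme-sensing repressor BACH1 and the activator NRF2 (Nfe2l2) act on transcription of Hmox1 and of the ferritin genes.

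The hairpin sequences are shown because some mRNAs of the set match the pattern of an iron-responsive element and others do not. The UTRs of GENCODE M21 transcripts were searched on the mRNA strand for C, then 5 bases, the loop CAGUGN and 5 bases, with at least 4 of the 5 opposing positions able to pair. In all, 4 of the 8 genes held a match, and every match listed paired at all 5 positions. Hmox1, Blvrb, Slc11a1 and Lcn2 had none in the UTRs searched. The matches lay in 4 of 5 transcripts of Fth1, 1 of 2 of Ftl1, 1 of 4 of Slc40a1 and 1 of 3 of Tfrc. Elements outside this pattern would be missed, and the Tfrc matches are numbered in their order. A match was found in 1073 of 21877 protein-coding genes (4.9%), so a match by itself is a description and not a shown site. Capitals mark the loop.
Fth1, 5′ UTR: uuccugcuucaaCAGUGCuugaacggaa
Ftl1, 5′ UTR: gucuugcuucaaCAGUGUuugaacggaa
Slc40a1, 5′ UTR: caacuucagcuaCAGUGUuagcuaaguu
Tfrc, 3′ UTR, element 1: aauuaucggaagCAGUGCcuuccauaau
Tfrc, 3′ UTR, element 2: cauuaucgggagCAGUGUcuuccauaau
Tfrc, 3′ UTR, element 3: cuauaucggagaCAGUGAucuccauaug
Tfrc, 3′ UTR, element 4: aauuaucgggaaCAGUGUuucccauaau
On GRCm38 the Fth1 element lies at chr19:9982732-9982759 (plus strand), the Ftl1 element at chr7:45459780-45459807 (minus strand) and the Slc40a1 element at chr1:45925466-45925493 (minus strand). The Tfrc elements lie on the plus strand at chr16:32631219-32631246, chr16:32631598-32631625, chr16:32631663-32631690 and chr16:32631710-32631737.

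Levels are given as CPM, estimated counts set relative to the library total and scaled by TMM factors, and differences as log2 fold changes with standard errors. Genes were tested with edgeR's quasi-likelihood test, adjusted by Benjamini-Hochberg over 13223 genes and called at an adjusted p under 0.05. Total estimated counts ran between 6023510 and 15368616 per library. CD103+ DC1 replicate 3 had the lowest total and stood apart, with Spearman correlations of 0.768 to 0.882 to the other libraries. CD103+ DC1 replicate 2 correlated at up to 0.900 with a library of another group, above the 0.882 with its own replicate. Rag2 had 40 and 2 estimated counts in Rag2-/- ISG+ DC and 0 and 0 in WT ISG+ DC. In Rag2-/- CD103+ DC1 it had 39 and 11. This goes against the labels if DC express Rag2 and a Rag2-/- host gives no Rag2 reads. Counts per gene do not show which part of Rag2 was read, so this was not settled here. The hosts are named as labelled throughout. The sorted populations did match their markers: between Rag2-/- ISG+ DC and CD103+ DC1, 7 of 8 DC1 markers fell and 6 of 8 CD11b+ cDC2 markers rose.

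The first comparison set ISG+ DC of hosts labelled Rag2-/-, which would lack mature lymphocytes, against ISG+ DC of hosts labelled WT. Hmox1, Fth1 and Ftl1 fell in Rag2-/- ISG+ DC, by 7.82-fold, 3.24-fold and 2.95-fold. Blvrb, Slc11a1 and Slc40a1 were also lower there without passing the test, and Tfrc was the 1 tested gene of the set with a higher mean. Thus 3 of 7 tested genes passed, all lower, where 0.287% of all genes tested passed as lower and 0.265% as higher (38 and 35 of 13223). Slc40a1 was tested only because of its counts in WT ISG+ DC and is left out of the next counts, which cover the 6 genes with a count in every library. An unadjusted p under 0.05 was reached by 5 of the 6, all lower, against 9.88% of all genes tested (4.56% lower, 5.32% higher). The groups did not overlap in any of the 6, of which 5 were lower and 1 higher. Of all genes tested, 44.5% had groups that did not overlap (21.4% lower, 23.1% higher). Less RNA of a gene in each cell and fewer cells of a type that carries it cannot be told apart in bulk samples.

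**Figure D1:**
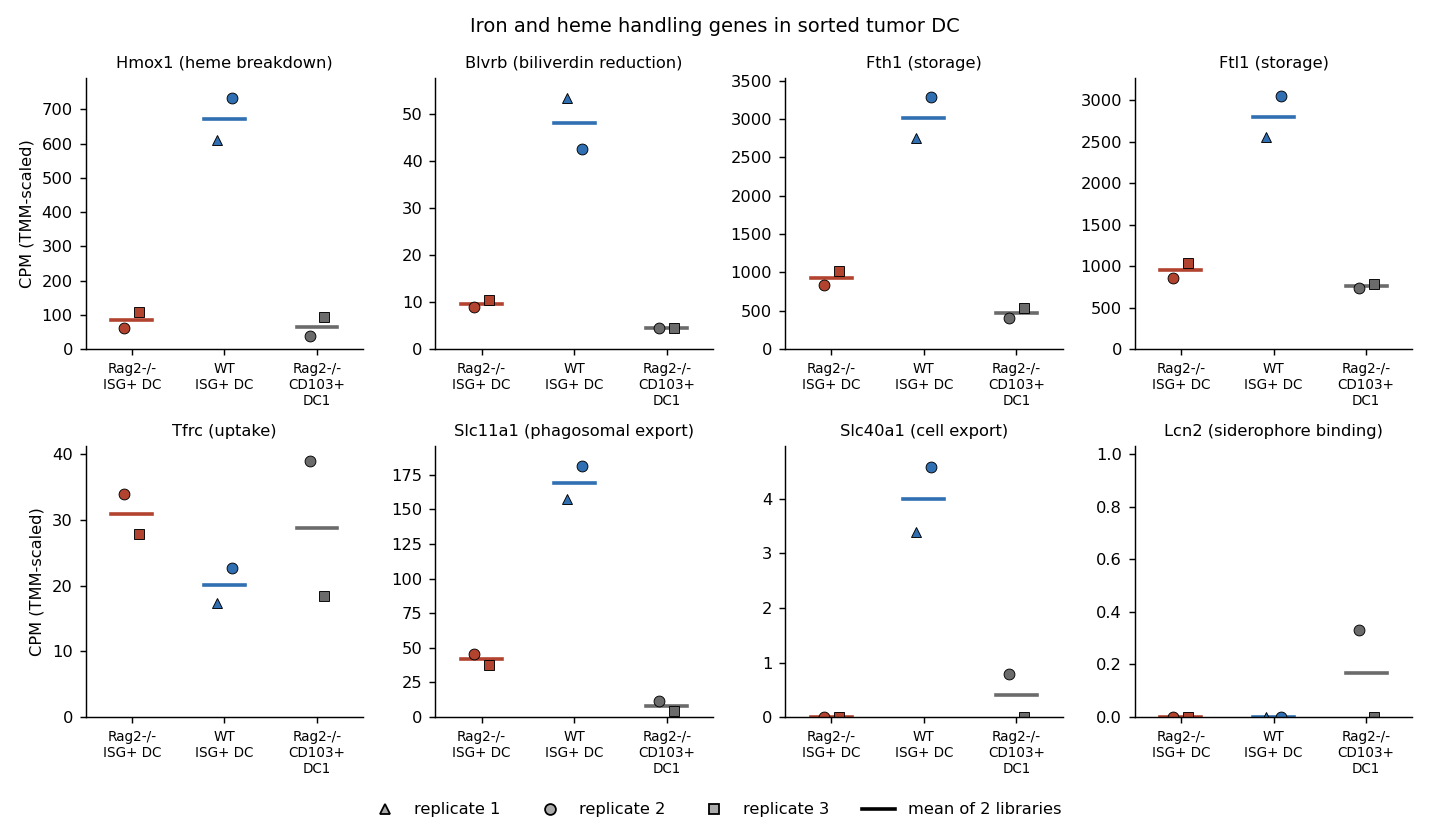
CPM of the 8 iron and heme genes in each library, with 1 panel per gene, a linear axis starting at 0, symbols for replicates and bars for the mean of 2 libraries. Hmox1, Blvrb, Fth1, Ftl1, Slc11a1 and Slc40a1 are highest in both WT ISG+ DC libraries, Tfrc is lowest on average there, and Lcn2 is at 0 in all libraries but CD103+ DC1 replicate 2.

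Hmox1 encodes heme oxygenase 1, the inducible enzyme that opens the heme ring. It had 62.4 and 109 CPM in Rag2-/- ISG+ DC, 611 and 733 CPM in WT ISG+ DC, and 37.1 and 95.1 CPM in Rag2-/- CD103+ DC1. Both WT libraries stood above all 4 Rag2-/- libraries, and the ISG+ DC and CD103+ DC1 of Rag2-/- hosts overlapped. The means were 85.9 ± 33.2 CPM in Rag2-/- ISG+ DC and 672 ± 85.9 CPM in WT ISG+ DC (SD, n = 2 each). The log2 fold change was -2.97 ± 0.45 (edgeR adjusted p = 0.0212), with a 95% interval of -3.96 to -1.97.

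Blvrb encodes biliverdin reductase B, which acts after heme oxygenase and also reduces flavins. It had 8.88 and 10.4 CPM in Rag2-/- ISG+ DC, 53.4 and 42.6 CPM in WT ISG+ DC, and 4.52 and 4.45 CPM in CD103+ DC1. No library of a group overlapped with another group, with WT ISG+ DC highest and CD103+ DC1 lowest. The log2 fold change between hosts was -2.31 ± 0.59 (edgeR adjusted p = 0.126), with a 95% interval of -3.62 to -1.01. This gene had an unadjusted p of 0.00268 and did not pass over all genes.

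The other enzymes of these steps had a different pattern. Hmox2, the constitutive heme oxygenase, had 160 and 150 CPM in Rag2-/- ISG+ DC and 101 and 110 CPM in WT ISG+ DC, a log2 fold change of 0.55 ± 0.29 (edgeR adjusted p = 0.605). Blvra, biliverdin reductase A, had 15.5 and 25.1 CPM in Rag2-/- ISG+ DC and 27.9 and 23.8 CPM in WT ISG+ DC, and the groups overlapped. The ratio of Hmox1 to Hmox2 counts within a library was 0.391 and 0.732 in Rag2-/- ISG+ DC, against 6.08 and 6.65 in WT ISG+ DC, and 0.392 and 1.27 in CD103+ DC1. For Blvrb to Blvra it was 0.573 and 0.416 in Rag2-/- ISG+ DC, against 1.92 and 1.79 in WT ISG+ DC, and 0.174 and 0.194 in CD103+ DC1. These ratios are not corrected for length, so they compare groups and not the 2 genes of a pair. Both pairs were named after their values were seen.

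Fth1, the ferritin heavy chain, oxidizes iron so that it can be stored. It had 839 and 1021 CPM in Rag2-/- ISG+ DC, 2755 and 3280.2 CPM in WT ISG+ DC, and 400.2 and 530.1 CPM in CD103+ DC1. No library of a group overlapped with another group, and WT ISG+ DC were highest. The log2 fold change between hosts was -1.70 ± 0.24 (edgeR adjusted p = 0.016), with a 95% interval of -2.23 to -1.17.

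Ftl1, the ferritin light chain, supports the mineral core of the shell. It had 861 and 1038 CPM in Rag2-/- ISG+ DC, 2549 and 3049 CPM in WT ISG+ DC, and 736 and 783 CPM in CD103+ DC1. WT ISG+ DC were again highest, and Rag2-/- ISG+ DC lay closer to CD103+ DC1 than for Fth1. The log2 fold change between hosts was -1.56 ± 0.22 (edgeR adjusted p = 0.016), with a 95% interval of -2.05 to -1.07. Both chains have processed pseudogenes, and RSEM shares reads between near-identical copies by a model, so the split of ferritin reads between copies is uncertain.

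Ferritin was abundant in every group. Fth1 and Ftl1 together took 0.176% and 0.208% of all counts in Rag2-/- ISG+ DC, against 0.519% and 0.606% in WT ISG+ DC, and 0.119% and 0.127% in CD103+ DC1. The ratio of Fth1 to Ftl1 counts was 0.974 and 0.984 in Rag2-/- ISG+ DC, against 1.08 and 1.08 in WT ISG+ DC, and 0.543 and 0.677 in CD103+ DC1. The heavy chain thus took a lower part of the ferritin counts in CD103+ DC1 than in either ISG+ DC group, with no overlap, a difference that was not tested as such.

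Tfrc, the transferrin receptor, brings in iron bound to transferrin. It had 34.1 and 27.9 CPM in Rag2-/- ISG+ DC, 17.4 and 22.7 CPM in WT ISG+ DC, and 39.0 and 18.5 CPM in CD103+ DC1. The ISG+ DC groups did not overlap, and the CD103+ DC1 libraries spanned most of the range of the other groups. The log2 fold change between hosts was 0.63 ± 0.55 (edgeR adjusted p = 0.82), with a 95% interval of -0.58 to 1.84, so a difference in either direction was not detectable. The ratio of Tfrc to Fth1 counts, 2 mRNAs with hairpins on opposite sides of the coding sequence, was 0.0406 and 0.0273 in Rag2-/- ISG+ DC, against 0.00633 and 0.00691 in WT ISG+ DC, and 0.0974 and 0.0349 in CD103+ DC1. It was lowest in WT ISG+ DC, where Fth1 was highest.

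Slc11a1 (NRAMP1) moves divalent metals out of the phagosome of macrophages and related cells. C57BL/6 mice are known to carry an allele that impairs this protein, and the allele was not read here. The gene had 45.9 and 37.9 CPM in Rag2-/- ISG+ DC, 158 and 181 CPM in WT ISG+ DC, and 11.8 and 4.62 CPM in CD103+ DC1. All 3 groups were apart, in the same order as for Blvrb and Fth1. Its log2 fold change between hosts was -2.02 ± 0.44, and it did not pass (edgeR adjusted p = 0.0809), with a 95% interval of -3.00 to -1.03 and an unadjusted p of 0.000974.

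Slc40a1 encodes ferroportin, the known exporter of iron from cells. Its estimated counts were 0 and 0 in Rag2-/- ISG+ DC, against 38 and 46 in WT ISG+ DC, and 12 and 0 in CD103+ DC1. In CPM these were 0 and 0, then 3.40 and 4.59, then 0.798 and 0, in the same order of groups. The gene passed the filter on low counts through WT ISG+ DC alone. WT ISG+ DC had a mean of 3.99 ± 0.845 CPM (SD, n = 2). Over the Rag2-/- ISG+ DC group, 3 counts set a limit of 0.101 CPM, 39.4-fold below that mean. The WT mean is a point value, so this ratio is not a lower bound. The limit covers counting error alone, and the gene did not pass (edgeR adjusted p = 0.439). Its log2 fold change between hosts had a 95% interval of -16.5 to -0.66. Its hairpin is of the type before the coding sequence.

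Lcn2 encodes lipocalin 2, which binds siderophores, the iron carriers of bacteria, and is abundant in neutrophil granules. It had 0 counts in all libraries but CD103+ DC1 replicate 2, with 5 counts (0.332 CPM), and it was not tested. The 0 counts allow up to 0.101 CPM in Rag2-/- ISG+ DC and 0.141 CPM in WT ISG+ DC.

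**Figure D2:**
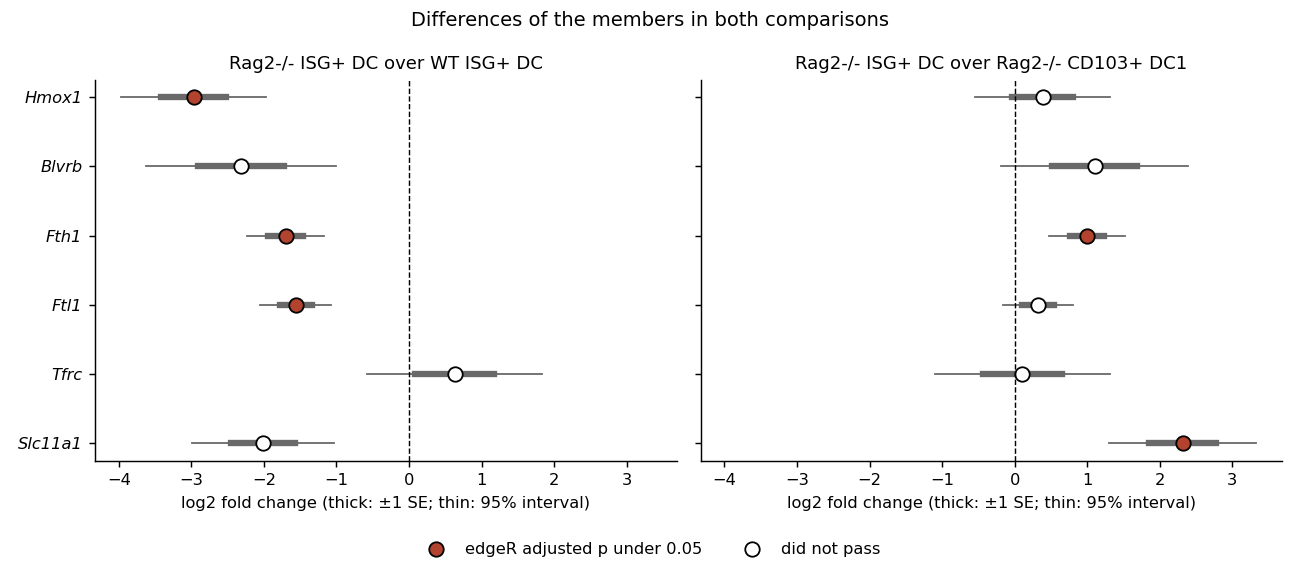
Log2 fold changes of the 6 genes with counts in every library, Rag2-/- ISG+ DC over WT ISG+ DC in the left panel and Rag2-/- ISG+ DC over Rag2-/- CD103+ DC1 in the right panel, with thick bars for 1 SE and thin bars for the 95% interval. Filled points passed at an adjusted p under 0.05: Hmox1, Fth1 and Ftl1 on the left at -2.97, -1.70 and -1.56, and Fth1 and Slc11a1 on the right at 1.0 and 2.31.

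The host calls depended on which libraries were kept, while the directions of Hmox1, Blvrb, Fth1, Ftl1, Slc11a1 and Tfrc were the same in all 11 alternatives. Without Rag2-/- ISG+ DC replicate 2 no gene of the set passed, with Hmox1 at -2.62, Fth1 at -1.56 and Ftl1 at -1.43 (edgeR adjusted p = 0.088, 0.118 and 0.141). Without WT ISG+ DC replicate 2, Ftl1 did not pass at -1.42 (edgeR adjusted p = 0.0587). Over the 11 alternatives the highest adjusted p was 0.088 for Hmox1, 0.118 for Fth1 and 0.141 for Ftl1. Leaving out either CD103+ DC1 library left Blvrb at -2.31 and Slc11a1 at -2.01. Both then passed the threshold, and so did a larger share of all genes than in the fit of all 6 libraries. Over all alternatives the adjusted p of Blvrb lay between 0.00153 and 0.534, and that of Slc11a1 between 3.51e-05 and 0.312.

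Macrophage markers had a lower summed level in Rag2-/- ISG+ DC than in WT ISG+ DC, while 1 of 13 passed between hosts. Their sum was 2129 and 3232 CPM in Rag2-/- ISG+ DC, 7149.8 and 6614 CPM in WT ISG+ DC, and 481 and 724 CPM in CD103+ DC1. Between hosts, Apoe fell at -2.93 ± 0.43 (edgeR adjusted p = 0.0194). A negative log2 fold change was found in 12 of the 13, and in 6377 of all 13223 genes tested. Fcgr1 alone was positive, at 0.32 ± 0.29 (edgeR adjusted p = 0.832). An unadjusted p under 0.05 was reached by 10, all lower, where 4.56% of all genes tested were lower at that p. Without Rag2-/- ISG+ DC replicate 2, Apoe did not pass either (edgeR adjusted p = 0.0733, the highest of its 11 alternatives), and no marker of the list passed. The number of markers that passed was 8 with DESeq2's Wald test, 10 without a filter and 9 with the compared groups alone. Of all genes, 4.39%, 3.38% and 3.59% passed in those fits. None of the 13 was at 0 in all libraries. The part of macrophages in the result was not tested.

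The summed level of 11 neutrophil markers was 49.5 and 34.3 CPM in Rag2-/- ISG+ DC, 148 and 167 CPM in WT ISG+ DC, and 16.8 and 34.6 CPM in CD103+ DC1. The defining neutrophil genes S100a8, Camp, Ngp and Elane were at 0 in all 6 libraries. Of the rest, Mmp8, a collagenase of neutrophil granules, had 0.126 and 0 CPM in Rag2-/- ISG+ DC and 5.72 and 18.3 CPM in WT ISG+ DC and did not pass (edgeR adjusted p = 0.252). S100a9, Mpo and Retnlg were at 0 in Rag2-/- ISG+ DC and at 4.11 and 0, 0.179 and 1.40, and 0.715 and 0 CPM in WT ISG+ DC, too low to be tested. Cxcr2 and Mmp9 had positive log2 fold changes (0.80 and 2.15), and neither passed. Csf3r, the receptor for granulocyte colony-stimulating factor, gave most of the sum in WT ISG+ DC, with 22.5 and 12.3 CPM in Rag2-/- ISG+ DC and 126 and 134 CPM in WT ISG+ DC. It was the 1 of 4 tested neutrophil markers to pass, lower at -2.90 ± 0.49 (edgeR adjusted p = 0.035). It did not pass without Rag2-/- ISG+ DC replicate 2 or 3 (edgeR adjusted p = 0.0833 and 0.142, the second the highest of its 11 alternatives). Erythroid markers, 10 in number, summed to 9.88 and 75.7 CPM in Rag2-/- ISG+ DC, 29.3 and 35.4 CPM in WT ISG+ DC, and 10.5 and 8.39 CPM in CD103+ DC1. Hba-a2, Klf1 and Epor were at 0 throughout, and these sums overlapped between hosts.

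CD11b+ cDC2 markers, 8 in number, summed to 2414 and 2854 CPM in Rag2-/- ISG+ DC, 3072 and 3188 CPM in WT ISG+ DC, and 159 and 124 CPM in CD103+ DC1. None of the 8 passed between hosts, and none had an unadjusted p under 0.05. Fibroblast and matrix markers, 6 in number, summed to 1043 and 643 CPM in Rag2-/- ISG+ DC, 444 and 49.5 CPM in WT ISG+ DC, and 1045 and 431 CPM in CD103+ DC1. This sum was higher in Rag2-/- ISG+ DC than in WT ISG+ DC, opposite to the ferritin genes, and the WT libraries lay far apart. None of the 6 passed between hosts, with 5 positive log2 fold changes and a negative one for Sparc (-1.27). An unadjusted p under 0.05 was reached by 2 of the 6, both higher, where 5.32% of all genes tested were higher at that p. They were Col1a2 at 2.48 ± 0.79 and Col3a1 at 2.53 ± 0.94 (edgeR adjusted p = 0.253 and 0.358). T cell markers, 6 in number, were low in every library, at 9.88 and 2.99 CPM in Rag2-/- ISG+ DC, 20.8 and 18.3 CPM in WT ISG+ DC, and 6.92 and 16.6 CPM in CD103+ DC1. The part of these cells in the result was not tested. Apoe, Csf3r and the other single markers were named after their values were seen.

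**Figure D3:**
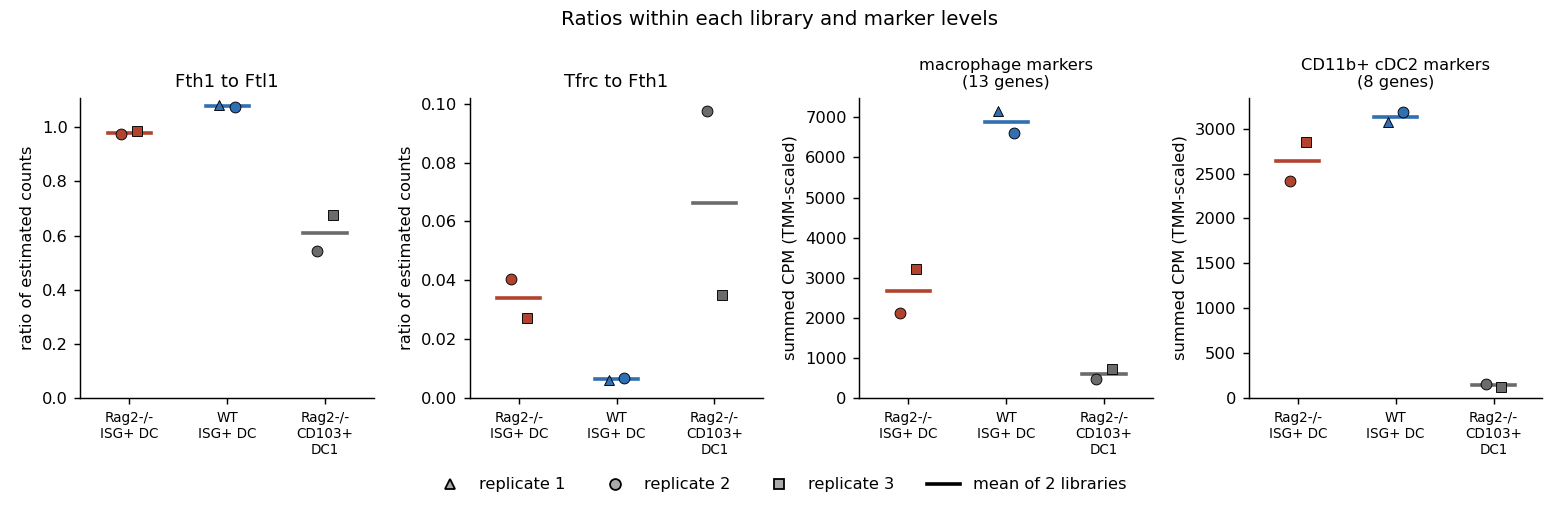
Ratios of estimated counts within each library (Fth1 to Ftl1, Tfrc to Fth1) and summed CPM of 13 macrophage and 8 CD11b+ cDC2 markers, on linear axes starting at 0, with bars for the mean of 2 libraries. The ratio of Tfrc to Fth1 is lowest in WT ISG+ DC, at 0.00633 and 0.00691, and the macrophage sum is highest there, at 7149.8 and 6614 CPM.

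The wider iron and heme network was read from 9 lists with 76 entries, 75 of them in the table and 65 tested. None passed between hosts, where 0.552% of all genes did in either direction. Their median log2 fold change was -0.18, against 0.03 for all genes tested. An unadjusted p under 0.05 was reached by 8 of the 65, where 9.88% of all genes tested reached it (4.56% lower, 5.32% higher). Each of the 8 was lower in Rag2-/- ISG+ DC: Lrp1, Alas1, Trf, Fbxl5, Nfe2l2, Srxn1, Txnrd1 and Slc7a11. The number of these genes tested changed with the fit. DESeq2's Wald test passed 3 of 61, where 4.39% of all genes passed. The fit without a filter passed 5 of 70, against 3.38% of all genes. The fit of the compared groups alone passed 4 of 62, against 3.59% of all genes. Leaving out either CD103+ DC1 library also let genes of the lists pass, and a larger share of all genes then passed too. A replicate block rests on WT ISG+ DC replicate 2 alone on the WT side, so its calls are not counted here. Every gene of the lists that passed in any of these fits was lower.

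The last 4 of these 8 were among the 12 genes of the BACH1 and NRF2 list, of which 8 had a negative log2 fold change. Slc7a11, the cystine carrier that feeds glutathione synthesis, had 15.4 and 33.1 CPM in Rag2-/- ISG+ DC and 116 and 132 CPM in WT ISG+ DC. Its log2 fold change was -2.35 ± 0.46 (edgeR adjusted p = 0.0516, and between 9.03e-05 and 0.332 over its 11 alternatives). Srxn1, sulfiredoxin, had 19.6 and 13.7 CPM in Rag2-/- ISG+ DC and 59.9 and 67.4 CPM in WT ISG+ DC (log2 fold change -1.93 ± 0.64, edgeR adjusted p = 0.282). Txnrd1, thioredoxin reductase, was at -1.03 ± 0.31 and Nfe2l2 itself at -0.91 ± 0.33 (edgeR adjusted p = 0.22 and 0.332). The groups did not overlap in any of the 4, which were named for their low p in the same libraries, so this adds no support. Of all genes tested, 44.5% had groups that did not overlap. Gclc, which starts glutathione synthesis, had 14.2 and 9.99 CPM in Rag2-/- ISG+ DC and 21.1 and 24.1 CPM in WT ISG+ DC, without overlap, and did not pass (log2 fold change -0.90, edgeR adjusted p = 0.69). Of other known NRF2 targets, Nqo1 was at most 2.59 CPM in any library, and Gclm had 7.87 and 14.1 CPM in Rag2-/- ISG+ DC and 10.1 and 5.29 CPM in WT ISG+ DC. Bach1 differed little between hosts, with 205 and 262 CPM in Rag2-/- ISG+ DC and 237 and 292 CPM in WT ISG+ DC (log2 fold change -0.18 ± 0.27, edgeR adjusted p = 0.946).

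Trf, transferrin, the ligand of the Tfrc protein, had 67.2 and 141 CPM in Rag2-/- ISG+ DC and 262 and 269.7 CPM in WT ISG+ DC. Its log2 fold change was -1.35 ± 0.36 (edgeR adjusted p = 0.146). Fbxl5, which marks the iron regulatory protein IRP2 for degradation when iron is plentiful, was at -1.21 ± 0.42 (edgeR adjusted p = 0.318). Ireb2, which encodes IRP2 itself, had 64.3 and 53.8 CPM in Rag2-/- ISG+ DC and 53.3 and 61.7 CPM in WT ISG+ DC. Pcbp1, a chaperone that carries iron to ferritin, had 151 and 186 CPM in Rag2-/- ISG+ DC and 199.7 and 184 CPM in WT ISG+ DC. Ncoa4, the receptor that takes ferritin to the lysosome, had 66.7 and 107 CPM in Rag2-/- ISG+ DC and 74.1 and 71.0 CPM in WT ISG+ DC. The groups overlapped in all 3 of these genes. Of 11 genes of iron-sulfur cluster assembly, none passed and none had an unadjusted p under 0.05. Hamp and Hamp2, the hepcidin genes, and Hephl1 were at 0 in all libraries. Genes of the network that passed in neither comparison were named here after their values were seen.

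**Figure D4:**
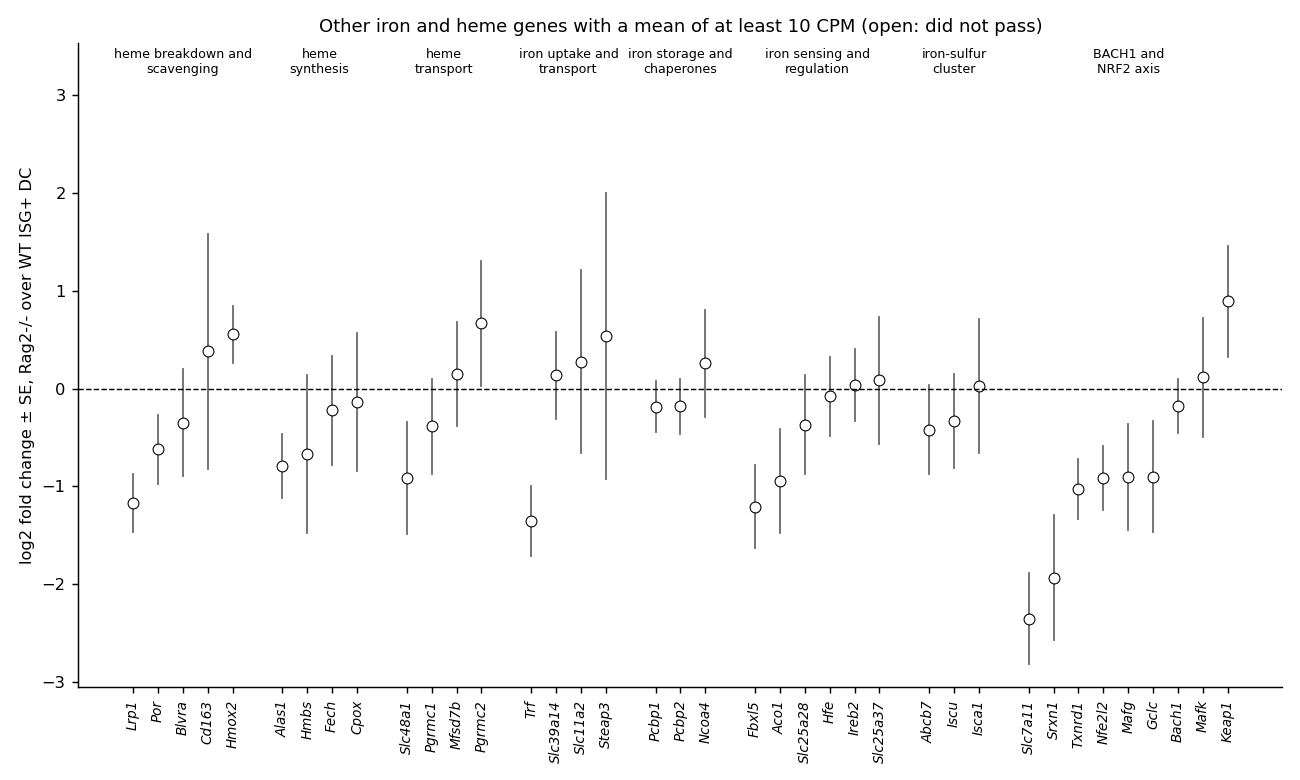
Log2 fold change of Rag2-/- ISG+ DC over WT ISG+ DC, with SE, for the 38 genes of the wider iron and heme lists with a mean of at least 10 CPM, ordered within each list. All points are open because none passed, and the lowest are Slc7a11 at -2.35 and Srxn1 at -1.93 in the BACH1 and NRF2 list.

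The second comparison set ISG+ DC against CD103+ DC1 within Rag2-/- hosts. Slc11a1 rose 4.97-fold and Fth1 2.0-fold in ISG+ DC, and Hmox1, Blvrb, Ftl1, Tfrc and Slc40a1 did not pass. Thus 2 of 7 tested genes passed, both higher, where 3.69% of all genes tested passed, 2.83% as higher and 0.862% as lower. In 4 of the 7 the groups did not overlap, each higher in ISG+ DC, where 45.9% of all genes tested did not overlap (23.9% higher, 22% lower). The comparison shares the Rag2-/- ISG+ DC libraries with the first, so the values of both are given side by side and no likeness is read from them.

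Slc11a1 averaged 41.9 ± 5.63 CPM in Rag2-/- ISG+ DC and 8.23 ± 5.10 CPM in CD103+ DC1 (SD, n = 2 each). Its log2 fold change was 2.31 ± 0.46 (edgeR adjusted p = 0.0184), with a 95% interval of 1.3 to 3.33. It did not pass without Rag2-/- ISG+ DC replicate 2, at 2.17 (edgeR adjusted p = 0.0543), and its size was 3.17 without CD103+ DC1 replicate 2 and 1.84 without replicate 3. Over its 12 alternatives the adjusted p lay between 4.06e-06 and 0.118.

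Fth1 averaged 930.3 ± 129 CPM in Rag2-/- ISG+ DC and 465 ± 91.9 CPM in CD103+ DC1 (SD, n = 2 each). Its log2 fold change was 1.0 ± 0.24 (edgeR adjusted p = 0.0456), with a 95% interval of 0.48 to 1.52. This call was close to the threshold and was lost in 7 of 12 alternatives, with adjusted p between 2.45e-05 and 0.389. Among them were the fits without Rag2-/- ISG+ DC replicate 2 (1.14) or 3 (0.85) and without WT ISG+ DC replicate 1 or 2 (edgeR adjusted p = 0.0998, 0.389, 0.0545 and 0.0561).

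Ftl1 averaged 949.6 ± 125 CPM in Rag2-/- ISG+ DC and 759.5 ± 32.6 CPM in CD103+ DC1, a log2 fold change of 0.32 ± 0.22 (edgeR adjusted p = 0.556). Its 95% interval was -0.16 to 0.80, and the groups did not overlap. Blvrb was at 1.10 ± 0.58 (edgeR adjusted p = 0.421), with groups that did not overlap. Hmox1 was at 0.39 ± 0.42 (edgeR adjusted p = 0.764), and its sign turned without Rag2-/- ISG+ DC replicate 3 (-0.07) or CD103+ DC1 replicate 2 (-0.15). Without CD103+ DC1 replicate 3, Hmox1 was at 1.23 and passed (edgeR adjusted p = 0.00508, the lowest of its 12 alternatives, of which the highest was 1). Tfrc was at 0.10 ± 0.54 (edgeR adjusted p = 0.966), and its sign turned without Rag2-/- ISG+ DC replicate 2 (-0.05) or CD103+ DC1 replicate 3 (-0.31). For Slc40a1 the counts of 0 and 0 in Rag2-/- ISG+ DC and 12 and 0 in CD103+ DC1 give no size.

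With ISG+ DC of both hosts averaged, Hmox1 (1.87), Blvrb (2.26) and Ftl1 (1.10) passed as well as Fth1 and Slc11a1, at edgeR adjusted p = 0.0161, 0.0309 and 0.00631. Of all genes tested, 8.75% passed with both hosts averaged. In that contrast the WT ISG+ DC libraries enter, and population and host are mixed.

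In the wider network 4 of 65 genes rose in ISG+ DC over CD103+ DC1 and none fell, where 2.83% of all genes rose. The median log2 fold change was 0.48, against -0.02 for all genes tested, and 14 genes of the 65 had an unadjusted p under 0.05, 1 of them lower, where 14.9% of all genes tested did (8.8% higher, 6.11% lower). The number that passed changed when a library was left out, and so did the number over all genes. No list had more than 1 of the 4.

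Lrp1, the large endocytic receptor that takes up heme bound to hemopexin among many ligands, had 846 and 1432 CPM in Rag2-/- ISG+ DC, 2449.7 and 2682 CPM in WT ISG+ DC, and 241 and 157 CPM in CD103+ DC1. It rose 5.72-fold over CD103+ DC1 (log2 fold change 2.52 ± 0.31, edgeR adjusted p = 0.00162), and it was at -1.17 ± 0.30 between hosts (edgeR adjusted p = 0.127). Slc39a14, a carrier of zinc and of iron not bound to transferrin, had 58.1 and 73.3 CPM in Rag2-/- ISG+ DC, 47.0 and 72.6 CPM in WT ISG+ DC, and 9.64 and 5.82 CPM in CD103+ DC1. It rose 8.40-fold (log2 fold change 3.07 ± 0.49, edgeR adjusted p = 0.00557) and was at 0.14 ± 0.44 between hosts, where the groups overlapped. Both genes passed in all 12 alternatives for the populations.

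Bach1 rose 3.21-fold, with 79.9 and 65.6 CPM in CD103+ DC1 (log2 fold change 1.68 ± 0.28, edgeR adjusted p = 0.0078). It did not pass without Rag2-/- ISG+ DC replicate 3, at 1.497 (edgeR adjusted p = 0.0725, the highest of its 12 alternatives). Alas1, which starts heme synthesis outside erythroid cells, had 77.4 and 75.4 CPM in Rag2-/- ISG+ DC, 115 and 149 CPM in WT ISG+ DC, and 25.9 and 24.3 CPM in CD103+ DC1. It rose 3.04-fold (log2 fold change 1.60 ± 0.34, edgeR adjusted p = 0.025) and did not pass without Rag2-/- ISG+ DC replicate 2 at 1.58 or replicate 3 at 1.62 (edgeR adjusted p = 0.126 and 0.133, the second the highest of its 12 alternatives). It did not pass with only the compared groups (0.0942) or with a replicate block (0.0659) either, both as edgeR adjusted p. It was the 1 of 9 genes of heme synthesis to pass. Macrophage markers moved with these genes too, since 10 of 13 rose in ISG+ DC over CD103+ DC1, where 2.83% of all genes tested rose. Their part in the result was not tested.

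The genes whose log2 CPM followed each iron gene most closely over the 6 libraries were taken from 8108 genes whose mean reached 10 CPM, by Pearson's r. For Hmox1 they were Irg1 (0.995), Pf4 (0.991) and Apoe (0.986). Blvrb was followed by Iigp1 (0.997), Esd (0.995) and Itm2b (0.995), and Slc11a1 by Gas2l1 (0.999), Tcf7l2 (0.998) and Maf (0.995). Fth1 was followed by Rgs1 (0.997), Nos2 (0.992) and Cndp2 (0.992), and Ftl1 by Pdpn (0.993), Nos2 (0.992) and Srgn (0.991). Slc40a1 was followed by Zfp710 (0.989), Pdcd1lg2 (0.988) and Npc2 (0.987), and Tfrc by Prrc2a (0.966), Setd7 (0.963) and Seh1l (0.963). These values are a description over 6 points that share the 3 groups, so 2 genes with the same order of groups reach a high r.

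Of these, Irg1, which makes itaconate in activated macrophages, had 1.89 and 4.81 CPM in Rag2-/- ISG+ DC, 92.2 and 124 CPM in WT ISG+ DC, and 0.465 and 5.65 CPM in CD103+ DC1. Nos2, the inducible nitric oxide synthase and the neighbour in pattern of both ferritin chains, had 0.881 and 2.99 CPM in Rag2-/- ISG+ DC, 225 and 481 CPM in WT ISG+ DC, and 0 and 0.343 CPM in CD103+ DC1. It fell between hosts (log2 fold change -7.52 ± 0.76, edgeR adjusted p = 0.00557), and it passed in all 11 alternatives. Its fitted size was -9.23 with a replicate block, -6.88 without Rag2-/- ISG+ DC replicate 2, -8.63 without replicate 3 and -6.86 without WT ISG+ DC replicate 2.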

How the data were processed

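Bulk RNA sequencing libraries of sorted tumor DC, 6 in 3 groups of 2, were read from 1 table of estimated counts per gene symbol, deposited by the authors without normalization, in which 16.1% of values are not whole. The submitters' processing notes, per the labels, name the build mm9 and the tools Bowtie 1.2.3 and RSEM 1.3.1. Per the labels' protocols the kit was a stranded low-input total RNA kit, while the molecule label names polyA RNA, and these were not reconciled. The sources used here do not give the annotation, strand setting or read filters, so overlapping and antisense genes cannot be separated. All value columns were matched to libraries by their labels. Groups follow the labels, which do not say that separate animals stand behind each library beyond the 2 independent experiments, so p-values measure the spread between these libraries.

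Rounded counts were tested with edgeR 4.0.16 and limma 3.58.1 under R 4.3.3. filterByExpr with groups left 13223 genes, libraries were scaled by TMM factors, and both comparisons came from a single quasi-likelihood fit of all 6 libraries (glmQLFit, glmQLFTest), two-sided and called at a Benjamini-Hochberg adjusted p under 0.05. Each gene had 3 residual degrees of freedom plus 7.34 of the prior, with a common biological coefficient of variation of 0.703. An exact permutation test of 2 libraries against 2 cannot pass this threshold and was not used. Standard errors were taken from the F statistic. Depth ran between 6023510 and 15368616 counts per library; 3 counts over a group, the limit used for genes at 0, are 0.101 CPM in Rag2-/- ISG+ DC, 0.141 CPM in WT ISG+ DC and 0.144 CPM in CD103+ DC1. Limits cover counting error only, since these reads carry no molecular identifiers and are not independent molecules. The procedure was tested on simulated data, where the share of false calls exceeded the nominal level, more so between hosts.

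The genes, the 17 lists (9 of iron and heme genes, 7 of markers and the set itself; 145 of 149 entries found) and the naming rules were chosen with earlier results of these data known. Named were all 8 genes of the set, up to 3 passing genes of each iron or heme list by smallest p, and the 3 genes most like each tested gene of the set in log2 CPM (prior count 2), leaving out predicted genes. Alternatives were DESeq2 1.42.0 (size factors, and its Wald test), no filter on low counts, only the compared groups, leaving out each library, the replicate number as a block, and ISG+ DC of both hosts averaged. The block between hosts was added after the data were seen, and on the WT side it rests on WT ISG+ DC replicate 2 alone. Hairpin sequences and their GRCm38 coordinates come from GENCODE M21 transcripts, matched by symbol; no coordinate of mm9 is given.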

Additional observations from a re-analysis of the deposited data

How the results depend on the processing

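Of the values of the 7 tested genes under the alternatives, 127 kept their direction and their side of the threshold, 13 lost a call, 13 gained one and 5 changed sign. Between hosts the 73 calls over all genes became 571 with DESeq2's Wald test, 555 without a filter, 444 with only the compared groups and 27 to 801 with a library left out (27 without Rag2-/- ISG+ DC replicate 2, 801 without CD103+ DC1 replicate 3). The 3 called genes of the set became 5 with DESeq2's Wald test, 5 with only the compared groups, and 0 to 5 with a library left out. Between populations the 488 calls became 1107, 1087 and 297 under those 3 alternatives, 1157 with ISG+ DC of both hosts averaged, and 278 to 2068 with a library left out. The 2 called genes of the set became 1 with DESeq2's size factors, 0 with only the compared groups (edgeR's quasi-likelihood test; 2 at an unadjusted p under 0.05), 5 with both hosts averaged, and 0 to 3 with a library left out. Size factors shifted the median of all genes by -0.04 between populations and -0.02 between hosts. Between populations the sign turned for Hmox1 without Rag2-/- ISG+ DC replicate 3 (-0.07) or CD103+ DC1 replicate 2 (-0.15), and for Tfrc without Rag2-/- ISG+ DC replicate 2 (-0.05), without CD103+ DC1 replicate 3 (-0.31) and with both hosts averaged (-0.21), while the highest values with a library left out were 1.23 for Hmox1 and 0.74 for Tfrc. Between hosts it turned for Slc39a14 without Rag2-/- ISG+ DC replicate 3 (-0.04) or WT ISG+ DC replicate 1 (-0.14) and with a replicate block (-0.047), with 0.49 as the highest value. Slc40a1 gave no value between populations without CD103+ DC1 replicate 2, since both groups were then at 0. The cause of these changes was not tested.

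The replicate numbers 2 and 3 are shared between the Rag2-/- groups. The labels do not say that a number marks a shared experiment, so the numbers were not taken to pair libraries. The deviations of same-numbered libraries correlated at 0.0162 over 13223 genes. With 2 libraries per group this is a single correlation and cannot decide whether libraries are paired. With the replicate number as a block, 659 genes passed between populations and 1 gene of the set, since Fth1 at 1.01 did not pass (edgeR adjusted p = 0.14, within 2.45e-05 to 0.389 over its 12 alternatives). Alas1 at 1.60 lost its call there too (edgeR adjusted p = 0.0659). Between hosts the groups share only replicate number 2, so WT ISG+ DC replicate 1 has a term of its own in a replicate block over all 6 libraries, a fit chosen after seeing the data. That fit passed 258 genes and the same 3 genes of the set, with Hmox1 at -3.68, Fth1 at -1.997 and Ftl1 at -1.78. Depth limits Slc40a1 and Lcn2 most, with at most 46 and 5 estimated counts per library.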
